A study of Mus musculus with 4 samples.

Results

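The 4 Hox clusters were covered at 3124 CpGs of the 1480609 CpGs covered in the data set, counting every CpG with at least 1 read in any library. The clusters were defined by position on the mouse genome build mm9, as chr6:52100000-52230000 for Hoxa (855 CpGs), chr11:96050000-96240000 for Hoxb (798 CpGs), chr15:102750000-102875000 for Hoxc (591 CpGs) and chr2:74490000-74610000 for Hoxd (880 CpGs). No measured value defines the windows, but they were chosen with earlier results of these data known.

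Hox genes encode homeodomain transcription factors that give cells along the body axis their positional identity, and they lie in the order in which they are used along that axis. Their paralogue groups are numbered from the end that is active first and most anteriorly. Blood stem and progenitor cells express genes of the Hoxa and Hoxb clusters, which are switched off as blood cells mature. Hox clusters are dense in CpGs, and where silent they are typically held by Polycomb complexes, with CpG islands that stay unmethylated. Methylation of a CpG island at a gene start is a different, more lasting kind of mark, and bisulfite sequencing reads methylcytosine and hydroxymethylcytosine alike.

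Reduced representation bisulfite sequencing, which reads CpG-rich restriction fragments, was applied to haematopoietic stem and progenitor cells (HSPCs), sorted from bone marrow as Sca1+Lin-, and to mature B cells, sorted from peripheral blood as B220+. Mice were wild-type or Sca1-BCL6Δ, all of CBAxC57BL/6J background; their age and sex were not given in the sources used here. In Sca1-BCL6Δ mice a Bcl6 cDNA driven by the Sca1 promoter was to be present in HSPCs and to be excised by Cre when Cd79a comes on, so that their B cells descend from cells that carried it. Each of the 4 conditions was 1 library of DNA pooled from 6 to 9 mice. No condition had a replicate library, so every test below compares the reads of 2 libraries and not the conditions. Neither the transgene nor the labelled cell types could be checked against marker genes, since only DNA methylation was measured.

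In the clusters, HSPC libraries covered 2761 CpGs (wild-type) and 2445 (Sca1-BCL6Δ), and B cell libraries covered 3022 (wild-type) and 2525 (Sca1-BCL6Δ). Values for the 4 libraries are given in that order throughout. The mean number of reads per covered CpG was 7.75, 6.29, 12.6 and 7.05. Levels are means over the 1007 CpGs with at least 5 reads in each library (261 in Hoxa, 233 in Hoxb, 171 in Hoxc, 342 in Hoxd), so that all 4 libraries are read at the same CpGs. Their standard error (SE) and intervals cover counting error alone, with CpGs within 50 bp taken to share their reads and 0.5 reads added to each class, so that a level of 0% or 100% also has an SE.

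The wild-type HSPC library stood apart from the Sca1-BCL6Δ HSPC library, in the Hox clusters and elsewhere. At the 65 Hox CpGs with a level of at least 80% in the combined B cell reads, the wild-type HSPC mean was 76.9%, against 88.3%, 93.4% and 89.0% in the others. Outside the clusters the same class of CpGs had 79.2% in wild-type HSPCs and 92.8% to 95.8% in the others. At Hox CpGs under 20% in the B cells wild-type HSPCs had the highest level, 11.5%, against 9.39%, 7.88% and 7.41%. Since B cell reads set these classes, the B cell means are high or low by that choice. Both HSPC libraries are free of it. In the clusters their means were 76.9% (wild-type) and 88.3% (Sca1-BCL6Δ) in the high class, and 11.5% and 9.39% in the low class. Without classes, 18.6% of CpGs outside the clusters were over 80% in wild-type HSPCs and 30.6% to 33.1% in the others. The called steps and the cluster differences between the wild-type stages are therefore given also with the Sca1-BCL6Δ HSPC library in its place. The part this shift plays in the other values that use the wild-type HSPC library was not tested.

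Promoters that carry the contrasts described below are shown first. Each is the 300 bases from 250 before to 50 after the gene start, taken from RefSeq (mouse build GRCm38.p6), read along the gene. Capitals mark the CpGs that had at least 5 reads in at least 1 library. The promoters were found on mm9 by matching the spacing of their CpGs to the covered positions; Hoxb8 was matched only through its distance to placed neighbours. Hoxa5 (chr6:52154537-52154836, minus strand) is the methylated promoter of the set, Hoxa6 (chr6:52158622-52158921, minus strand) its unmethylated neighbour, Hoxb8 (chr11:96142969-96143268, plus strand) lay in between, and Hoxd3 (chr2:74549800-74550099, plus strand) was among the lowest.
Hoxa5: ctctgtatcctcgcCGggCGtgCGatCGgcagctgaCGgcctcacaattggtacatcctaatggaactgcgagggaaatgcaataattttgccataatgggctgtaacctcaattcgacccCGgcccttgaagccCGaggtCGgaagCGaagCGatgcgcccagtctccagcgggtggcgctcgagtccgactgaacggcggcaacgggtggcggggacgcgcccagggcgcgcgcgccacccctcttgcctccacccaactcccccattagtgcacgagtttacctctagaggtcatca
Hoxa6: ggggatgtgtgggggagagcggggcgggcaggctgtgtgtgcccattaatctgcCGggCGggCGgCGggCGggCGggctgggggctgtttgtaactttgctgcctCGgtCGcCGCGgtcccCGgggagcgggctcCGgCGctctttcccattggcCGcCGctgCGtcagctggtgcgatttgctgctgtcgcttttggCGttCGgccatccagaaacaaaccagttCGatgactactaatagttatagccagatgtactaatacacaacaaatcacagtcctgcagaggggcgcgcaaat
Hoxb8: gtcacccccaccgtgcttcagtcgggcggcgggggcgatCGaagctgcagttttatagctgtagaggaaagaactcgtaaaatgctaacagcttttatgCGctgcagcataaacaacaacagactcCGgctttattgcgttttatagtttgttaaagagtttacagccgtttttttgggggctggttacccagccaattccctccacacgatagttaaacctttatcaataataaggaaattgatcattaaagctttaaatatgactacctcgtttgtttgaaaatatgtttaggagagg
Hoxd3: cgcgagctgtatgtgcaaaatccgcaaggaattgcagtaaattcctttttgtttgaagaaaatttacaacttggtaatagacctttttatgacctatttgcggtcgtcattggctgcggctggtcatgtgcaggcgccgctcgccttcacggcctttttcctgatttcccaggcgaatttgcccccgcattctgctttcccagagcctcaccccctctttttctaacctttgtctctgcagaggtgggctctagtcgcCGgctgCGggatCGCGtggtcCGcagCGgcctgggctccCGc
The RefSeq sequence of Hoxa5 holds 29 CpGs, that of Hoxa6 26, that of Hoxd3 20 and that of Hoxb8 13. Of all 32851 RefSeq promoters, 12.9% hold at least as many CpGs as Hoxa5, so both Hoxa promoters are among the CpG-richest.

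Methylation of the Hox clusters was low in all 4 libraries and close between them. Hoxa had mean levels of 26.1% ± 1.46 (counting SE), 28.2% ± 1.56, 27.1% ± 1.05 and 25.2% ± 1.41. Hoxb had 20.4% ± 1.74, 18.4% ± 1.87, 21.9% ± 1.42 and 15.7% ± 1.72. Hoxa was the highest of the 4 clusters in every library, and Hoxb came next. Hoxc had 19.3% ± 1.90, 16.1% ± 1.99, 15.9% ± 1.47 and 15.3% ± 1.80. Hoxd had 14.4% ± 1.34, 12.9% ± 1.36, 14.9% ± 0.99 and 14.0% ± 1.35, the lowest of the clusters in each library. Hoxb and Hoxc were further apart than their summed SEs in wild-type B cells alone. CpGs outside the clusters, read with the same minimum, averaged 36.7%, 40.6%, 41.5% and 41.2%.

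**Figure D1:**
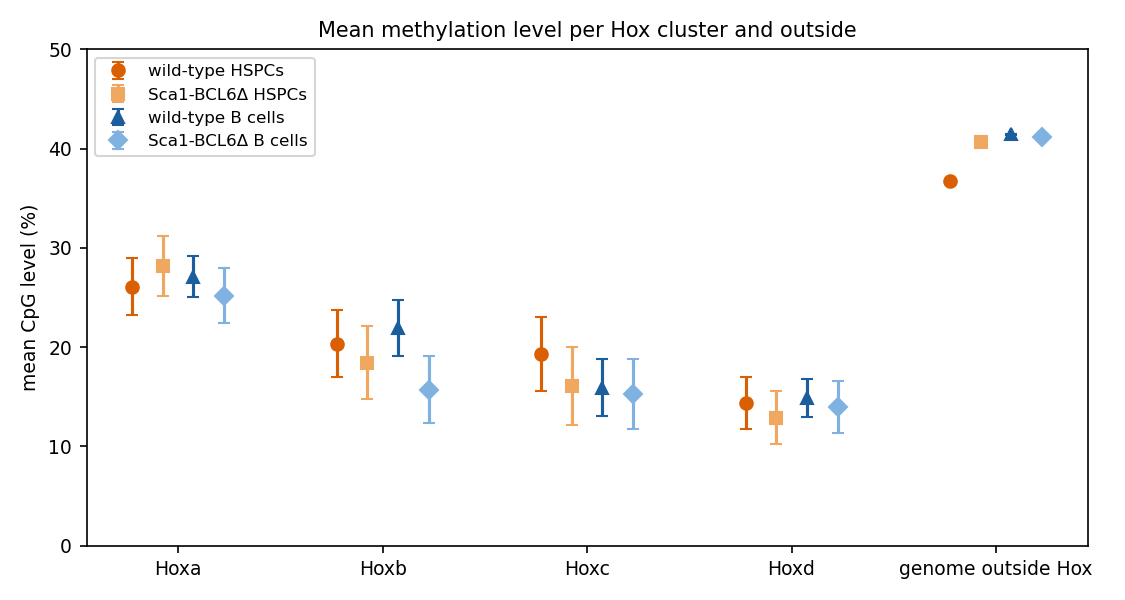
Mean CpG methylation level in percent (y axis) of each Hox cluster and of the CpGs outside the clusters (x axis), with 1 marker per library and error bars of the 95% counting interval. Hoxa markers lie between 25.2% and 28.2% and Hoxd markers between 12.9% and 14.9%, all below the 36.7% to 41.5% outside the clusters.

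Most Hox CpGs were nearly unmethylated. Under 20% were 63.0%, 67.6%, 68.8% and 71.2% of them, and over 80% were 3.38%, 5.26%, 7.35% and 5.26%. Outside the clusters, 18.6% to 33.1% of CpGs were over 80%. Of the 1007 CpGs, 718 had a mean of the 4 libraries under 20%, and these had a median of 9 other covered CpGs within 100 bp. The 51 Hox CpGs at 80% or more had a median of 4, where outside the clusters the corresponding medians were 10 and 2.

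Along the clusters, in steps of 10 kb, the low level was interrupted by a few methylated stretches. Of 57 steps, 50 held at least 3 CpGs with enough reads. Their mean level was under 20% in 34 steps (68.0%), 20% to 50% in 9 and at least 50% in 7 (14.0%). Of 29563 steps outside the clusters, 32.0% were under 20% and 54.6% at 50% or more. All 7 high steps lay in Hoxa (4 of 12 steps) and Hoxb (3 of 15), and no step of Hoxc (11) or Hoxd (12) reached that level.

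**Figure D2:**
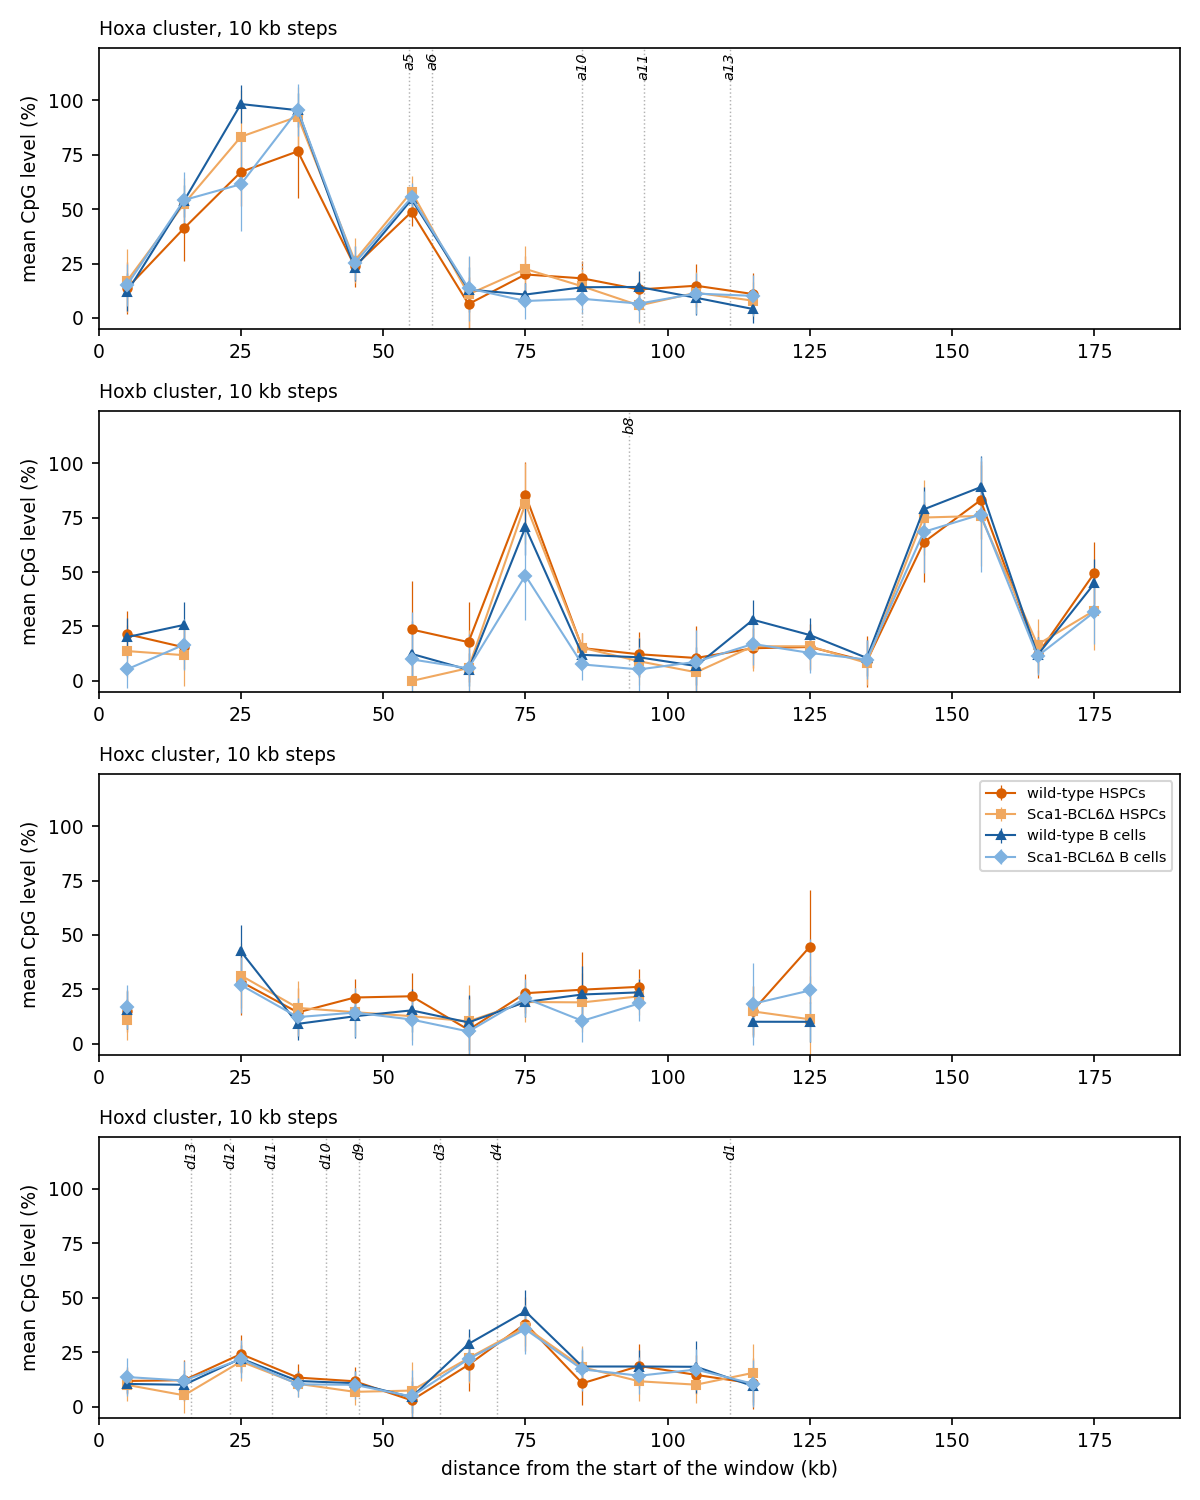
Mean CpG level in percent (y axis) of each 10 kb step along the 4 clusters (x axis, distance from the window start in kb), with 1 line per library; dotted lines mark placed Hox gene starts. In Hoxa the 4 steps with a mean of at least 50% lie before or at the Hoxa6 start, beside lower steps of that side, and the steps beyond it with at least 3 CpGs have means of 8.30% to 15.3%. Hoxb has separate peaks, and Hoxc and Hoxd stay below 50% in all 4 libraries.

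Hoxa had a more methylated and a less methylated side. From the window start up to the Hoxa6 start, 98 CpGs averaged 44.9% ± 2.56 (counting SE), 54.0% ± 2.61, 53.1% ± 1.74 and 51.2% ± 2.42. Beyond the Hoxa6 start, on the side of Hoxa7 to Hoxa13, 163 CpGs averaged 14.7% ± 1.76, 12.6% ± 1.95, 11.5% ± 1.32 and 9.51% ± 1.73. The sides differed by 30.2 percentage points in the wild-type HSPC library and by 41.3, 41.6 and 41.7 in the others. Of the CpGs with a mean level of at least 50%, 49 lay on the first side and 3 on the second. The boundary was placed at the Hoxa6 start after these values were seen, so the size of the difference is a description.

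Long methylated stretches were also delimited after seeing the levels. They were taken as 3 or more consecutive CpGs, of those read in each library, with a mean of at least 50%. They held 78 of the 93 Hox CpGs at that level, in 5 stretches. In Hoxa, chr6:52115754-52140634 (26 CpGs) had 72.6%, 89.7%, 97.3% and 80.6%. The second Hoxa stretch, chr6:52150588-52158303 (22 CpGs), holds the Hoxa5 start and had 78.7%, 92.6%, 88.9% and 92.8%. In both, the wild-type HSPC library was the lowest.

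Hoxb held 2 such stretches and Hoxd 1. Between the placed starts of Hoxb8 and of Hoxb3os, a transcript of the opposite strand at Hoxb3, chr11:96190044-96207470 (15 CpGs) had 77.8%, 75.5%, 86.2% and 74.2%. On the far side of Hoxb8, toward Hoxb13, chr11:96121859-96126277 (3 CpGs) had 85.4%, 81.3%, 70.5% and 48.4%. In Hoxd, chr2:74556967-74565069 (12 CpGs) spans the Hoxd4 start and had 65.8%, 80.5%, 88.0% and 73.8%. None of these 12 CpGs lies in the Hoxd4 promoter. There, 3 CpGs read in wild-type B cells alone had 18.7% (0% to 28.6%). Hoxc had 4 CpGs at 50% or more and none of them in a stretch.

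The sharpest contrast lay between Hoxa5 and its neighbour Hoxa6, whose starts are 4085 bases apart. Hoxa5, a regulator of lung and axial skeleton development, had a promoter methylated at 96.4% ± 7.68 (counting SE), 98.3% ± 6.57, 97.7% ± 4.96 and 100% ± 10.9 over 5 CpGs with 5 to 18 reads. Hoxa6, which acts in patterning of the vertebral column, had 6.20% ± 7.49, 5.81% ± 10.4, 6.59% ± 4.22 and 3.31% ± 6.36 over 11 CpGs with 5 to 27 reads. The 5 Hoxa5 CpGs lie at -213 to -235 bases from the start, and no CpG nearer than -92 bases was covered. The stretch at the Hoxa5 start itself was thus not measured. Where read, the promoters sat near opposite ends of the scale in each library, at both stages and in both genotypes.

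**Figure D3:**
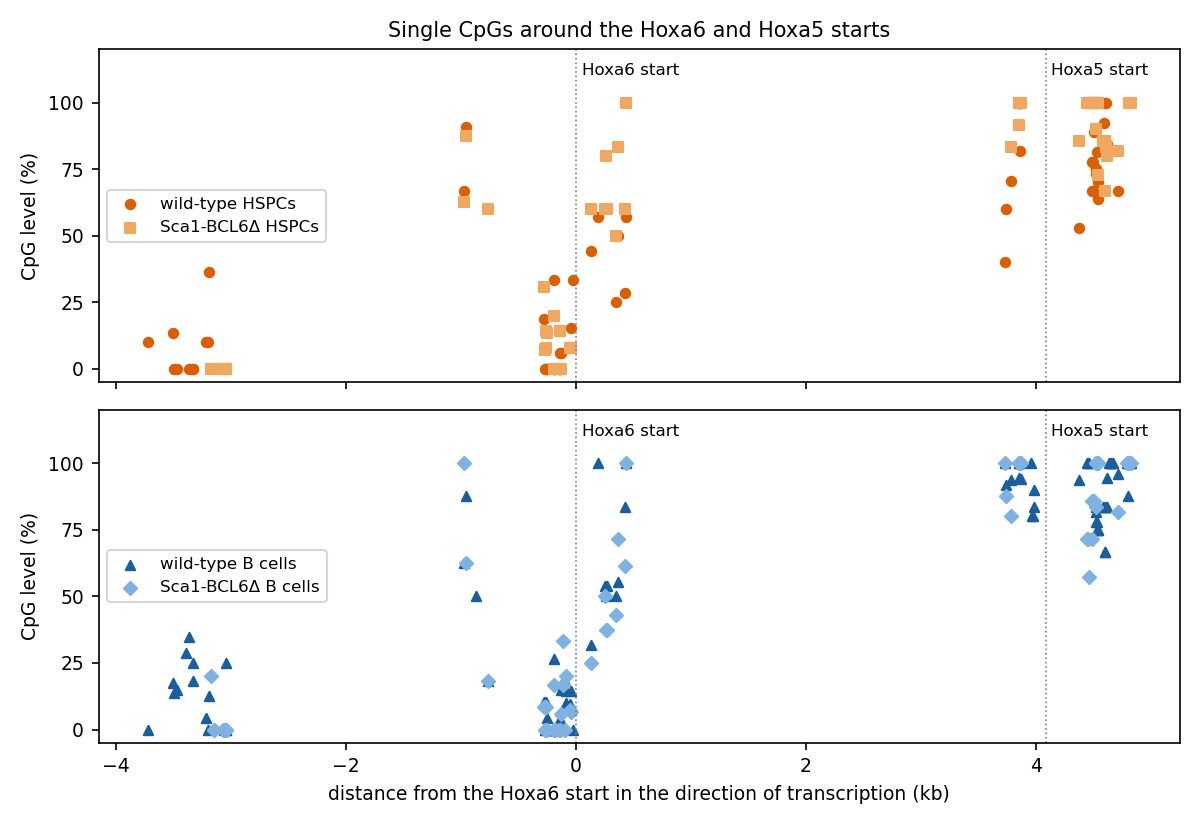
Methylation level in percent (y axis) of single CpGs, by distance in kb from the Hoxa6 start in the direction of transcription (x axis). A CpG is shown for each library in which it had at least 5 reads, so the CpGs shown differ between libraries. CpGs just before the Hoxa6 start lie mostly under 20%. The 5 CpGs of the Hoxa5 promoter with at least 5 reads in all 4 libraries average 96.4% to 100%.

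Fine steps around the Hoxa6 start showed levels that changed over short distances. In the 500 bases before the start, 16 CpGs averaged 5.43%, 8.57%, 6.10% and 3.31%. In the 500 bases from the start on, 5 CpGs averaged 41.0%, 70.7%, 64.1% and 60.2%. Further before it, at -1000 to -501 bases from the start, the 2 neighbouring CpGs read in each library averaged 78.8%, 75%, 75% and 81.2%. Nearer the start, position 52159439 had 1 of 3, 3 of 5, 2 of 11 and 2 of 11 methylated reads. Position 52159538 had 1 of 4, 1 of 2, 3 of 6 and 2 of 3. The upstream edge of the unmethylated part could not be set, since these positions lacked 5 reads in some libraries. Before the Hoxa5 start, 6 CpGs at 3500 to 3999 bases from the Hoxa6 start averaged 92.1%, 95.8%, 97.1% and 96.7%. They include the 5 CpGs of the Hoxa5 promoter given above.

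Single reads, each a copy of 1 DNA molecule, showed the same contrast. Of reads with at least 3 CpGs inside the Hoxa5 promoter, 11 of 15, 11 of 12, 22 of 27 and 8 of 8 were wholly methylated. None was wholly unmethylated. Taking the limit that a count of 0 allows as 3 reads of the total, here and below, this allows up to 20%, 25%, 11.1% and 37.5% of such reads. At the Hoxa6 promoter 20 of 24, 11 of 15, 44 of 55 and 24 of 29 reads were wholly unmethylated, and 1, 1, 2 and 0 were wholly methylated.

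Promoters at the level of Hoxa5 were rare among all placed promoters. Of 6166 promoters with at least 3 CpGs read in each library, 43, 68, 69 and 68 were above 80%, or 0.697% to 1.12%. Of the 2952 with at least 29 CpGs in their sequence, 5 were above 80% and 2908 under 20% over the 4 libraries. As at Hoxa5, these levels rest on the CpGs read and not on whole promoters. Among 8 Hox genes with at least 3 such CpGs, Hoxa5 was above 80% and 7, 7, 7 and 6 were under 20%. Their medians, 8.28%, 4.99%, 7.04% and 3.65%, lay beside 8.21%, 6.23%, 6.64% and 5.79% for all placed promoters.

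Of the 39 Hox genes, 22 had a promoter sequence in the RefSeq table and 14 of these were placed on mm9, 5 in Hoxa, 1 in Hoxb and 8 in Hoxd. Hoxa2, Hoxa3, Hoxa7, Hoxa9, Hoxb1, Hoxb4, Hoxc4 and Hoxd8 were not placed, so Hoxc is described without promoters of Hox genes. In paralogue groups 1 to 3, Hoxd1 and Hoxd3 had the lowest means over the 4 libraries of the placed Hox promoters. Hoxd3 (7 covered CpGs) had 5%, 2.38%, 4.95% and 1.67%. Hoxd1 (chr2:74600787-74601086) had 2.86%, 3.08%, 7.30% and 0% over 5 CpGs read in each library. There, 10 reads per CpG in the last library allow up to 30.0%. Over the 14 Hoxd1 CpGs with at least 5 reads in Sca1-BCL6Δ B cells, that library had 7.63%. Both are anterior genes and both were under 20% in each library.

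In groups 4 to 8, Hoxa5 and Hoxb8 of 4 placed promoters reached 20% in a library, each read at its CpGs with at least 5 reads there. Hoxb8, whose enforced expression holds myeloid progenitors in an undifferentiated state, had 69.0%, 60.2% and 46.2% over 3 CpGs in the first 3 libraries and 0% at 1 CpG in Sca1-BCL6Δ B cells. At that CpG, at -211 bases from the start, 8 of 14, 4 of 8, 10 of 26 and 0 of 8 reads were methylated, and 0 of 8 allows up to 37.5%. The remaining 2 CpGs had 4 reads each in Sca1-BCL6Δ B cells, of which 2 and 1 were methylated, so no level of this promoter could be set for that library. The Hoxd4 promoter had enough reads in wild-type B cells alone, with 18.7%.

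In groups 9 to 13, 7 of 8 placed promoters had values, and Hoxd9, Hoxd10, Hoxd12 and Hoxd13, genes of limb and genital patterning, reached 20% in a library. Hoxd12 (chr2:74512820-74513119) had 20.8%, 9.09%, 50.7% and 5.56%. Hoxd10 (chr2:74529698-74529997) had 24.4%, 20%, 45.2% and 10.5%. These rest on CpGs that differ between libraries, and at the 2 Hoxd12 CpGs read in all of them the levels were 20.8%, 9.09%, 41.2% and 8.33%. At Hoxd10, 3 CpGs read in both B cell libraries had 22.1% (wild-type) and 24.6% (Sca1-BCL6Δ), and 3 CpGs read in both wild-type libraries had 43.3% (HSPCs) and 22.1% (B cells), so the order of the libraries at this promoter turned with the CpGs read. Hoxd9 (chr2:74535570-74535869) had 34.8%, 0%, 21.4% and 15.2%, with 0% from at most 7 reads per common CpG, which allows up to 42.9%. Hoxd13 (chr2:74506032-74506331) had 19.7%, 4.17%, 7.81% and 22.7%. These 4 were named for a high level in some library, and those that could be tested did not pass the test given below.

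The other placed posterior genes stayed low at the CpGs read in each library. Hoxa11 (chr6:52195760-52196059) had 7.27%, 0%, 13.5% and 4.00%, where 0% from at most 6 reads per CpG allows up to 50%. Hoxa13 (chr6:52210825-52211124) had 17.4%, 13.6%, 2.50% and 2.22%. Hoxd11 (chr2:74520130-74520429) had 9.28%, 11.1%, 6.78% and 5.09%. Of other genes in the windows, Hoxa11os, the opposite-strand transcript at Hoxa11, had 14.1%, 8.85%, 11.1% and 8.33%, and Hoxb3os had 6.67%, 16.6%, 13.1% and 0%, where at most 10 reads per CpG allow up to 30.0%. Evx2, the homeobox gene next to Hoxd13, had no CpG with 5 reads in every library, and nor did Hoxa10.

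The first comparison asks whether methylation of the clusters differs between HSPCs and B cells. In wild-type mice the cluster means differed by 1.01 percentage points in Hoxa (95% counting interval -2.52 to 4.54), by 1.55 in Hoxb (-2.85 to 5.96), by -3.40 in Hoxc (-8.11 to 1.31) and by 0.52 in Hoxd (-2.75 to 3.78), as B cells minus HSPCs. All 4 intervals include 0. With the Sca1-BCL6Δ HSPC library in place of the wild-type one they were -1.09 (-4.77 to 2.60), 3.47 (-1.14 to 8.08), -0.16 (-5.01 to 4.69) and 2 (-1.29 to 5.30), in the same order. With CpGs thinned to lie more than 50 bp apart, the interval excluded 0 in Hoxa (3.26, 0.13 to 6.39) and in Hoxc (-4.24, -7.97 to -0.51), and the Hoxb difference turned to -1.68 (-5.15 to 1.79). Over the 1007 CpGs the difference was 0.22 (-1.72 to 2.15), while CpGs outside the clusters were higher in B cells by 4.74 (4.64 to 4.84). In Sca1-BCL6Δ mice the differences were -3.00 in Hoxa (-7.12 to 1.13), -2.72 in Hoxb (-7.71 to 2.27), -0.77 in Hoxc (-6.03 to 4.49) and 1.08 in Hoxd (-2.66 to 4.83). With thinned CpGs the interval excluded 0 in Hoxa (-3.57, -7.12 to -0.02) and Hoxb (-5.65, -9.53 to -1.76). Outside the clusters the difference in Sca1-BCL6Δ mice was 0.53 (0.42 to 0.64).

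In 10 kb steps, tested over the genome with the Cochran-Mantel-Haenszel test on the reads and Benjamini-Hochberg adjustment, 3 of 54 Hox steps were called between the wild-type libraries, where a call needed at least 10 points of difference besides an adjusted p under 0.05. Over the genome 19.6% of 45265 steps were called (19.2% as higher in B cells), so the Hox share of 5.56% was below the background. All 3 were higher in B cells. At chr6:52120000-52129999, around the start of 5730596B20Rik in the methylated side of Hoxa, the level was 84.4% in B cells and 60.1% in HSPCs, with an adjusted p of 0.00266. The adjoining step chr6:52110000-52119999 had 60.3% and 48.0%, at an adjusted p of 0.00434. At chr2:74550000-74559999, which runs from Hoxd3 toward Hoxd4, the level was 27.7% and 13.8%, at an adjusted p of 0.00331. With the Sca1-BCL6Δ HSPC library in place of the wild-type one, these 3 differences were 3.16, 3.21 and 7.47 points with an adjusted p of 1 each, and none of 48 Hox steps was called. An exact conditional test on the same reads called 4 Hox steps between the wild-type libraries. The share called over the genome was not counted for that test.

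Calls between the wild-type libraries went with the level of the step. Steps were classed by their mean in the 2 Sca1-BCL6Δ libraries, which take no part in this comparison. Of steps under 20% there, 0 of 36 Hox steps and 1.91% of 9570 steps elsewhere were called. At 20% to 50%, 1 of 9 Hox steps and 6.56% of 4621 were called. At 50% or more, 2 of 7 Hox steps (28.6%) and 28.5% of 25606 were called, with median differences of 11 and 13.7 points. Within each class the share of Hox steps called lay near that elsewhere, with no test of the difference.

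A further 4 Hox steps had an adjusted p under 0.05 with a difference below 10 points. The share of all steps in that class was not counted. An unadjusted p under 0.05 was reached by 20.4% of the Hox steps and 34.8% of all steps. Of the 4, chr6:52200000-52209999 alone was lower in B cells, with 12.7% against 21.3% in HSPCs. That difference was -8.63 points, at an adjusted p of 0.0182 by the Cochran-Mantel-Haenszel test. The step with Hoxa5 and Hoxa6, chr6:52150000-52159999, had 62.2% in wild-type B cells and 55.7% in wild-type HSPCs, a difference of 6.46 with an adjusted p of 0.00109. In Sca1-BCL6Δ mice 0 of 43 steps were called against 0.0855% of all steps. An unadjusted p under 0.05 was found for 1 step (2.33%), against 4.20% of all steps. That step, chr6:52170000-52179999 in the posterior side of Hoxa, had 7.80% in B cells and 22.5% in HSPCs, with an adjusted p of 0.778 by the Cochran-Mantel-Haenszel test.

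**Figure D4:**
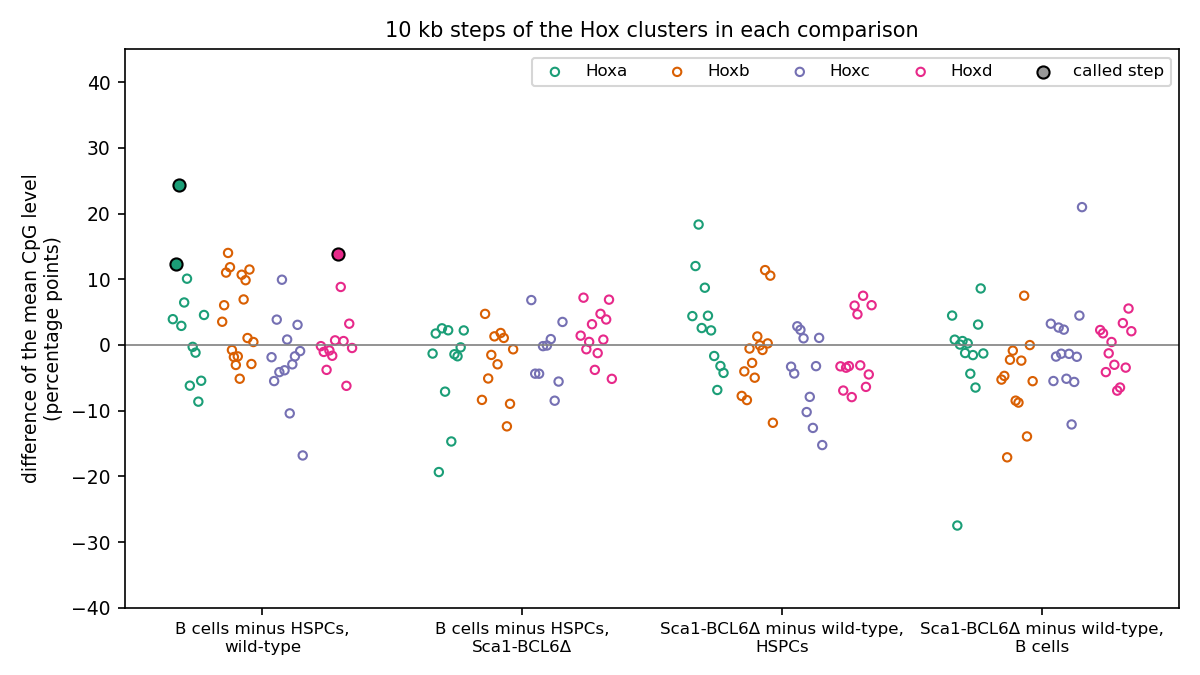
Difference of the mean CpG level in percentage points (y axis) for each tested 10 kb step, in the 4 comparisons (x axis), with 1 point per step coloured by cluster. The wild-type B cell against HSPC comparison reaches 24.3 points at the Hoxa step called, and most steps in each comparison lie near 0.

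Single CpGs were compared by Fisher's exact test where both libraries had at least 10 reads. Between wild-type B cells and HSPCs 1 of 782 Hox CpGs was called, at a difference of at least 20 points. Over the genome 0.734% of CpGs were called (0.682% as higher in B cells). Of the Hox CpGs, 38 (4.86%) had an unadjusted p under 0.05, against 10.6% of CpGs over the genome. The CpG called, at position 52135350 of chromosome 6 in the methylated side of Hoxa, was methylated in 30 of 30 reads in B cells and in 6 of 12 in HSPCs (50%, Wilson 95% interval 25.4% to 74.6%), with an adjusted p of 0.0348. The Sca1-BCL6Δ libraries had 15 of 15 reads in HSPCs and 16 of 17 in B cells. The wild-type HSPC library was thus the only one of the 4 with more than 1 unmethylated read at this CpG. In Sca1-BCL6Δ mice 0 of 365 CpGs were called against 0.0183%. By Fisher's exact test 6 (1.64%) had an unadjusted p under 0.05, against 1.74% over the genome.

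The second comparison asks whether Sca1-BCL6Δ cells differ from wild-type cells of the same stage. In HSPCs the cluster means differed by 2.09 points in Hoxa (-2.10 to 6.28), -1.92 in Hoxb (-6.93 to 3.09), -3.24 in Hoxc (-8.64 to 2.16) and -1.48 in Hoxd (-5.22 to 2.25), as Sca1-BCL6Δ minus wild-type. With thinned CpGs the interval excluded 0 in Hoxa (4.32, 0.58 to 8.06) and Hoxc (-4.93, -9.22 to -0.63). Outside the clusters the difference was 3.92 (3.81 to 4.04). This comparison and the wild-type comparison of stages share the wild-type HSPC library. Of 47 steps 0 were called, against 0.168% of all steps, and 6 had an unadjusted p under 0.05, the smallest adjusted p being 0.188. Of 353 CpGs 0 were called, against 0.037%. By Fisher's exact test 14 (3.97%) had an unadjusted p under 0.05, against 4.44% over the genome.

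In B cells Hoxb was lower in the Sca1-BCL6Δ library, with 15.7% against 21.9%, a difference of -6.19 points (95% counting interval -10.6 to -1.81). Of the 16 cluster differences in the 4 comparisons, this is the only one whose interval excludes 0 at the 1007 CpGs. With thinned CpGs 7 of the 16 did, this one (-7.25, -10.6 to -3.91) and the 6 given above. Over all 1007 Hox CpGs the B cell libraries differed by -2.34 (-4.26 to -0.43), and outside the clusters by -0.29 (-0.38 to -0.19). In sign the Hoxb difference was spread along the cluster, since 11 of 12 tested Hoxb steps were lower, by differences of -17.1 to -0.02 points. Of its 233 CpGs 57.1% were lower and 26.6% higher, against 35.0% and 34.1% outside the clusters. Lower CpGs also prevailed in Hoxa (46.4% and 31.8%), Hoxc (53.2% and 40.9%) and Hoxd (43.6% and 39.5%). In Hoxb 21.0% of CpGs had no methylated read in wild-type B cells, against 38.2% in Sca1-BCL6Δ B cells. No single Hoxb step had an unadjusted p under 0.05. With CpGs of at least 10 reads the interval reached 0 (-4.96, -10.3 to 0.36). Hoxa, Hoxc and Hoxd differed by -1.91 (-5.36 to 1.54), -0.61 (-5.16 to 3.94) and -0.92 (-4.20 to 2.36). Wild-type B cells were read more deeply in Hoxb, with a mean of 12.3 reads per CpG against 7.11, and the part of depth in this difference was not tested.

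Over the B cell libraries 0 of 50 Hox steps were called, against 0.0156% of all steps. Of these Hox steps 2 (4%) had an unadjusted p under 0.05, against 3.29% of all steps. Of 619 CpGs 0 were called, against 0.0172%, and 8 (1.29%) had an unadjusted p under 0.05, against 1.68% over the genome. The largest difference of a step lay again at chr6:52120000-52129999. Over 10 CpGs it had 67.0% ± 8.06 (counting SE), 83.2% ± 10.9, 98.2% ± 4.43 and 61.4% ± 11. Its 2 CpGs nearest the window start were methylated in every read of every library. The difference between the B cell libraries lay mostly in 7 CpGs at positions 52125758 to 52125934. The first had 8 of 10, 4 of 5, 10 of 10 and 3 of 6 methylated reads, and the last had 1 of 5, 4 of 5, 6 of 6 and 2 of 6. The remaining CpG, at position 52129247, had 10 of 20, 11 of 12, 11 of 12 and 9 of 10, so it was lowest in wild-type HSPCs. Between the B cell libraries the test of this step, on 23 CpGs, gave 56.9% against 84.3%, with an unadjusted p of 0.0433 and an adjusted p of 1 by the Cochran-Mantel-Haenszel test.

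The genotype difference of B cells was also set against that of HSPCs, step by step, as the difference of the log odds ratios. Of 43 Hox steps 0 were called, against 0.0174% of all steps. An unadjusted p under 0.05 was found for 2 (4.65%), against 6.73% of all steps. The larger was the step chr6:52120000-52129999, at -53.0 points, with an adjusted p of 0.404. The other was the Hoxa5 and Hoxa6 step, at -8.33 points, with an adjusted p of 0.681. Neither passed the adjustment over the genome.

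Other steps with the largest differences of their cluster rest on few CpGs. The Hoxb step chr11:96120000-96129999 (3 CpGs) had 85.4%, 81.3%, 70.5% and 48.4%, with a difference of -33.0 points between Sca1-BCL6Δ B cells and HSPCs (-60.6 to -5.31). The last Hoxc step inside the window, chr15:102870000-102875000 (4 CpGs, 5 to 24 reads), had 44.6%, 11.3%, 10.2% and 24.5%, with -34.5 points between wild-type B cells and HSPCs (-61.9 to -7.10). The test of that step covers the full 10 kb and so runs past the window. Over its 9 CpGs it gave -16.8 points, with an unadjusted p of 0.736 by the Cochran-Mantel-Haenszel test, and did not call the step. In Hoxd the largest difference of a step between the wild-type stages was 9.59 points over 19 CpGs read in all 4 libraries, at the step called above on 32 CpGs.

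The steps with the highest and the lowest mean over the 4 libraries, chosen by these values, show the range of levels in each cluster. In Hoxa, chr6:52130000-52139999 had 76.5%, 92.4%, 95.3% and 95.4%, and chr6:52210000-52219999, with Hoxa13, had 11%, 7.94%, 4.12% and 10.1%. In Hoxb, chr11:96200000-96209999 had 83.0%, 75.7%, 88.9% and 76.4%, and chr11:96150000-96159999 had 10.5%, 4.00%, 6.87% and 8.79%. In Hoxc the range was narrower, from 28.6%, 31.4%, 42.4% and 27.0% at chr15:102770000-102779999 to 6.51%, 10.4%, 9.88% and 5.73% at chr15:102810000-102819999. In Hoxd, chr2:74560000-74569999, with Hoxd4, had 38.2%, 36.6%, 43.8% and 35.6%, and chr2:74540000-74549999 had 3.03%, 7.51%, 4.5% and 4.80%.

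Promoters of Hox genes were tested as units with the Cochran-Mantel-Haenszel test over all promoters placed by CpG spacing alone, with Benjamini-Hochberg adjustment and a minimum difference of 20 points. Between the wild-type stages 0 of 4 were called (0.0204% of all promoters), and 0 of 3 in Sca1-BCL6Δ mice (0% of all promoters). Between genotypes 0 of 3 were called in HSPCs and 0 of 5 in B cells (0% of all promoters in each). Hoxd12 alone had an unadjusted p under 0.05, with B cell levels of 41.7% (wild-type) and 5.56% (Sca1-BCL6Δ) over 3 CpGs, at an unadjusted p of 0.011 and an adjusted p of 1. Of all promoters tested between the B cell libraries, 1.68% had an unadjusted p under 0.05. The Hoxa5 promoter could not be tested, since its CpGs with enough reads in each pair of libraries lie within 50 bp of each other.

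Reads with at least 3 CpGs, which span at most 35 bases, showed whether intermediate levels come from whole molecules. In the Hox clusters 67.9%, 73.0%, 67.1% and 72.1% of such reads were wholly unmethylated, 10.9%, 11.6%, 9.99% and 9.69% wholly methylated and 21.2%, 15.4%, 22.9% and 18.2% mixed, of 3544, 2705, 6217 and 3054 reads. Over the genome 18.6%, 12.7%, 16.7% and 13.5% were mixed and 21.8% to 24.4% wholly methylated. Mixed reads were more frequent in the wild-type library of each stage, both in the clusters and over the genome. The cluster with the least methylation, Hoxd, had mixed shares of 21.9%, 17.2%, 26.5% and 20.2%, against 19.9%, 13.3%, 17.8% and 15.2% in Hoxa.

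**Figure D5:**
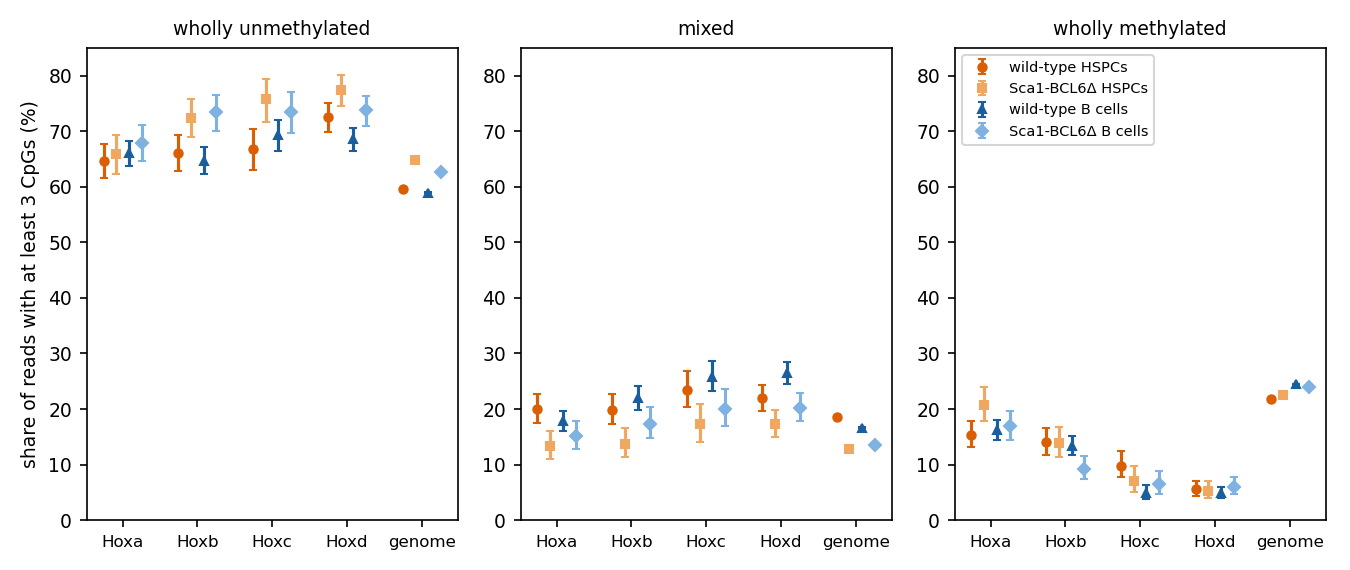
Percent of reads with at least 3 CpGs (y axis) that were wholly unmethylated, mixed or wholly methylated, for each Hox cluster and the genome (x axis), with 1 marker per library and Wilson 95% intervals. Wholly methylated reads make up 15.4% to 20.8% in Hoxa and 4.95% to 6.03% in Hoxd, against 21.8% to 24.4% over the genome.

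Regulators and partners of Hox genes, a list of 35 genes, were read at their own promoters where these were placed and had enough reads. The list holds Trithorax and Polycomb proteins, the Pbx and Meis cofactors, the Cdx regulators and the DNA methylation enzymes. Among promoters placed by CpG spacing alone, no Meis, Cdx or Ezh gene was tested, and Pbx2 was the only cofactor. Promoters of 16 genes of the list were tested between the wild-type stages, 14 in Sca1-BCL6Δ mice, 14 between genotypes in HSPCs and 15 in B cells. None was called in any of the 4, and the median differences were -1.81, -1.79, -0.89 and 0.05 points. Ring1, an E3 ligase subunit of Polycomb complex PRC1, had the largest difference between the wild-type stages, with 6.26% in B cells and 29.8% in HSPCs, at an unadjusted p of 0.0107 and an adjusted p of 0.819. Its Sca1-BCL6Δ levels were 5.52% (B cells) and 6.66% (HSPCs). Jarid2, a partner of the methyltransferase complex PRC2, had the largest in Sca1-BCL6Δ mice, with 8.28% in B cells and 45.5% in HSPCs, at an adjusted p of 1, where wild-type HSPCs had 13.7%. Most of the tested promoters were under 20% in both libraries, 15 of 18, 12 of 14, 11 of 15 and 16 of 16 in the same order.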

How the data were processed

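The 4 libraries were reduced representation bisulfite sequencing of HSPCs and B cells, wild-type and Sca1-BCL6Δ. Per the submitters' methods text, an in-house pipeline aligned the reads to the ends of predicted fragments; no version of it was found in the labels or that text. Coordinates are those of mm9, per the submitters' processing notes. No removal of PCR duplicates was recorded, so intervals and limits cover counting error only.

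For each CpG the deposited tables hold the counts of methylated reads and of all reads, and a score, which is the methylated share in per mille, rounded down. The deposited read tables give the percent of methylated CpGs of each read and the count of its CpGs, per the file headers.

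The windows, gene lists and tests were chosen with earlier results of these data known. Samples were grouped by their titles. Levels used CpGs with at least 5 reads in each library. Fisher's exact test compared single CpGs read at least 10 times in each of the 2 libraries. Steps of 10 kb (at least 3 CpGs more than 50 bp apart) and promoters (at least 2) were compared by the Cochran-Mantel-Haenszel test with a continuity correction of 0.5. P-values were two-sided and adjusted by Benjamini-Hochberg over the genome; calls needed a difference of 20 points for CpGs and promoters or 10 for steps besides an adjusted p under 0.05. Of 32851 RefSeq promoters, 8109 were placed by CpG spacing alone (at least 6 covered CpGs) and 3225 between placed neighbours.

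Named steps were those called and, in each cluster, the highest, the lowest and the largest difference of each comparison. Named promoters were those called, those at 20% or more in a library and the 2 lowest. Named CpGs were those called. Scripts were tested on simulated data and run in Python 3.11.15 with numpy 2.4.6, scipy 1.17.1, pandas 2.3.3, numba 0.67.0 and matplotlib 3.10.9. Alternatives changed read minimums, thinning, tests, step positions, promoter placement and the HSPC library.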

Additional observations from a re-analysis of the deposited data

How the results depend on the processing

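No paired analysis was possible because each condition was 1 library. Each of the 84 alternative values of the 16 cluster differences lay within the 95% counting interval of the value reported, but with thinned CpGs 7 of 16 intervals excluded 0, as given in the report, against 1, and the wild-type Hoxb difference between stages turned from 1.55 to -1.68 points. The sign also turned at 1 difference with the wild-type HSPC library replaced (Hoxa, given in the report) and at 3 with at least 10 reads in each library (Hoxd between the stages in both genotypes and Hoxb between HSPC genotypes), all with intervals that include 0. The Hoxb difference between B cell libraries was -4.96 points (95% counting interval -10.3 to 0.36) with at least 10 reads in each library, -3.83 (-7.62 to -0.04) with at least 5 reads in the 2 libraries compared, -7.25 (-10.6 to -3.91) with thinned CpGs and -6.34 with pooled reads.

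Between the wild-type stages, the 3 step calls became 1 with a minimum difference of 20 points and 0 with the Sca1-BCL6Δ HSPC library in place of the wild-type one; the other 5 alternatives gave 2 to 4. The Hoxd step fell to 6.57 points with at least 10 reads, at an adjusted p of 0.267. The 1 CpG call became 0 with at least 5 reads, at an adjusted p of 0.0617, 0 with the Sca1-BCL6Δ HSPC library and 2 with at least 20 reads in both. The 2, at positions 102848935 and 102848957 of chromosome 15 in Hoxc, had 22 of 22 and 19 of 22 methylated reads in wild-type B cells against 13 of 21 and 8 of 21 in wild-type HSPCs (adjusted p = 0.0397 and 0.0422, Fisher's exact test). The cause of these changes was not tested. In the other comparisons, calls stayed at 0 under every alternative run. Shares called over the genome were not counted for the alternative step and CpG calls.

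With steps shifted by 5 kb, 3 Hox steps were called between the wild-type stages. The share over the genome was not counted for shifted steps, and was 19.6% for unshifted ones. They were the steps from position 52125000 of chromosome 6 (82.3% in B cells and 54.8% in HSPCs, adjusted p of 0.00259), from 74545000 of chromosome 2 (16.6% and 4.52%, 0.00236) and, in a cluster with no call otherwise, from 96085000 of chromosome 11 in Hoxb (96.7% and 71.5%, 0.00674). The Hoxb step rests on 4 CpGs, with 64 reads in B cells and 53 in HSPCs. Shifted steps were not tested with the Sca1-BCL6Δ HSPC library in place of the wild-type one.

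The following alternatives were chosen after seeing the data. Leaving out each library in turn gave 33 to 35 steps under 20% and 6 to 7 at 50% or more. The difference between the sides of Hoxa rose to 48.9 and 49.4 points in the wild-type and the Sca1-BCL6Δ B cell library with at least 10 reads, and to 48.2 and 49.9 with thinned CpGs. Promoters placed between neighbours added no call. Depth limits the results most in the Sca1-BCL6Δ libraries, where 515 and 713 Hox CpGs had at least 10 reads, against 867 and 1773 in the wild-type ones.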

Other observations

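Correlations of single-CpG levels between libraries were lower in the Hox clusters than elsewhere. Across the 1007 Hox CpGs, which share libraries and differ in depth, Pearson's r between pairs of libraries was 0.739 to 0.826 and Spearman's rho 0.495 to 0.601. Across 344553 CpGs outside the clusters r was 0.887 to 0.958 and rho 0.804 to 0.842. These are correlations across CpGs, which are not independent replicates, and a larger share of the Hox CpGs lay under 20%. The mean absolute difference of a CpG was not larger in every comparison: it was 11.3 points in the clusters and 12.8 outside between the wild-type stages, 10.8 and 9.44 between the Sca1-BCL6Δ stages, 12.2 and 13.6 between genotypes in HSPCs, and 10.5 and 7.96 in B cells.

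At 2 neighbouring CpGs of Hoxc the B cell libraries were both higher than the HSPC libraries. At position 102848957 of chromosome 15, 8 of 21 reads were methylated in wild-type HSPCs, 3 of 7 in Sca1-BCL6Δ HSPCs, 19 of 22 in wild-type B cells and 11 of 12 in Sca1-BCL6Δ B cells. At position 102848935 the numbers were 13 of 21, 6 of 7, 22 of 22 and 12 of 12. This pair was singled out after its values were seen. With 7 reads in the Sca1-BCL6Δ HSPC library it was below the minimum of 10 for a test in that genotype.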
